A study of Mus musculus with 8 samples.

Results

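The Iroquois genes Irx1 to Irx6 make up a pair of clusters in the mouse genome, and their chromatin loops, TADs and CTCF sites were compared in mouse embryonic stem (ES) cells and in the epithelium and fiber cells of the newborn lens. The members were the 6 Iroquois genes among 21631 protein-coding genes on 20 chromosomes of the gene table (GRCm38.p6, the assembly that mm10 also names). Irx1, Irx2 and Irx4 lie on chromosome 13 and Irx3, Irx5 and Irx6 on chromosome 8. A loop was assigned to a gene when at least 1 of its anchors overlapped the gene body widened by 5 kb on each side. A TAD was assigned when it touched this widened gene, and a CTCF peak when it lay in it.

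Hi-C, which counts contacts between pieces of crosslinked chromatin, was done with 2 replicates of each cell type after fixation in 2.0% formaldehyde. Lens epithelium and lens fibers were microdissected from CD-1 mice at postnatal day 0.5, with 30 lenses pooled per replicate. The ES cells were the wild type v6.5 line grown without feeders and with LIF, with about 2000000 cells per replicate. The paper gives this line as male and of a mixed strain background, so that strain and cell type differ together between ES cells and lens. CTCF ChIP-seq was done in both lens cell types, with 200 lenses and 1 sample for each. Both Hi-C replicates of a cell type were merged into 1 map before loops and TADs were called, so that the spread between replicates cannot be had from the lists and neither cell types nor clusters could be compared by a test. The lists hold no RNA, and the labelled cell types were not checked against marker genes here.

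Iroquois proteins are homeodomain transcription factors of the TALE class, and they pattern tissues such as the heart, limb, lung, neural tube and retina. The clusters arose by duplication of an ancestral cluster. By ancestry Irx1 is the counterpart of Irx3, Irx2 of Irx5 and Irx4 of Irx6. Long stretches of DNA without other protein-coding genes separate the members and hold many enhancers, and the promoters of a cluster are known to contact each other. A chromatin loop in a Hi-C map is a pair of sites with more contacts than their surroundings. CTCF is the zinc finger protein that stops loop extrusion by cohesin at many loop anchors and TAD borders.

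On chromosome 13, Irx1 spans chr13:71958232-71963723, Irx2 chr13:72624430-72634196 and Irx4 chr13:73259589-73269622. On chromosome 8, Irx3 spans chr8:91798511-91801654, Irx5 chr8:92357796-92361456 and Irx6 chr8:92674289-92680956. The cluster on chromosome 13 is the wider of the pair, with 1311 kb from the first to the last gene against 882 kb. The gaps are 661 kb from Irx1 to Irx2, 625 kb from Irx2 to Irx4, 556 kb from Irx3 to Irx5 and 313 kb from Irx5 to Irx6.

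The promoters of Irx2, Irx4 and Irx3 are shown because they lie inside the 5 kb anchors of the ES cell loops that join the Iroquois genes. Each is a window of 300 bases around an annotated transcript start, printed 5′ to 3′ on the strand of the gene, from RefSeq (GRCm38.p6). For Irx2 and Irx4 the window lies inside the gene body given above. Capitals mark CpG dinucleotides. Of the 6 members, 3 were matched in the promoter table, and the others were Irx1, Irx5 and Irx6.
Irx2, chr13:72628570-72628869, plus strand: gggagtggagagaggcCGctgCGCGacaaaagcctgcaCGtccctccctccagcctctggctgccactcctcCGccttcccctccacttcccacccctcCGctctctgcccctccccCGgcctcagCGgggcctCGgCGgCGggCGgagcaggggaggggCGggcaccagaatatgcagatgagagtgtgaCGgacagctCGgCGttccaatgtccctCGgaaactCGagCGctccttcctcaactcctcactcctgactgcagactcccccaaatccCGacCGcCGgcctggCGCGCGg
Irx4, chr13:73260247-73260546, plus strand: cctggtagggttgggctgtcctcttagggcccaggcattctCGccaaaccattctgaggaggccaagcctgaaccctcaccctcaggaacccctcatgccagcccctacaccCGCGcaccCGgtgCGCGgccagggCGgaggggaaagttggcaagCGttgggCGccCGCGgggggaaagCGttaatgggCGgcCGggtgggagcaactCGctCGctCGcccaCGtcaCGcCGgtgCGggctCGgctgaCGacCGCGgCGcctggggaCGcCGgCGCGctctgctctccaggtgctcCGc
Irx3, chr8:91801605-91801904, minus strand: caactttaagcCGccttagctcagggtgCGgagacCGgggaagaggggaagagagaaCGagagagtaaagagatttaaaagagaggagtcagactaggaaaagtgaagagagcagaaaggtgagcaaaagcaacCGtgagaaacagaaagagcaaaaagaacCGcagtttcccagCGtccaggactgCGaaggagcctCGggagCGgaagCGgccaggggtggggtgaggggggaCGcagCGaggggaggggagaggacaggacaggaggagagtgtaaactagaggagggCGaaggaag

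All 3 promoters held more CpG than the median promoter, Irx3 by the least. The Irx4 window held 31 CpG and had a GC content of 70.7%, the Irx2 window 25 CpG and 69%, and the Irx3 window 14 CpG and 56%. Among 32851 promoters of the same length the median was 7 CpG and 52.7% GC. As many CpG as in Irx4, Irx2 and Irx3 were found in 10.6%, 18.4% and 36.3% of all promoters. The motif AGGGGGC, a part of the CTCF consensus, was searched on both strands. It was found in none of the 3 windows and in 10.6% of all promoters, and no lens CTCF peak overlapped these windows.

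In ES cells each of the 6 Iroquois genes had a loop, and in each lens list Irx4 and Irx6 had none. Irx1 had 5 loops in ES cells and 3 in each lens list. Irx2 had 8 in ES cells, 2 in epithelium and 1 in fibers, and Irx4 had 2, 0 and 0. Irx4 is known from the ventricular myocardium. On chromosome 8, Irx3 had 8, 2 and 2 loops in the same order. Irx5, which with Irx3 shapes electrical conduction and repolarization in the heart, had 5, 5 and 2. Irx6, known from bipolar interneurons of the retina, had 2, 0 and 0. The ES cell count was above both lens counts in 5 of 6 genes, and Irx5 was as high in lens epithelium as in ES cells.

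The counts were set against those of all protein-coding genes. At least 1 loop was found at 6 of 6 members in ES cells and 4 of 6 in each lens list, against 37.3%, 36.2% and 34.5% of all protein-coding genes. Irx2 and Irx3 had 8 loops each in ES cells, a number reached by 0.259% of genes. Some of those of Irx3 had their anchor in the 5 kb margin, beside the gene. The median was 1 loop among genes with a loop in each list. Irx1, Irx2, Irx3 and Irx5 had loops in all 3 lists, as did 21.3% of genes. Irx4 and Irx6 had loops in ES cells and in neither lens list, as did 9.51% of genes. More loops in ES cells than in each lens list were counted at 16.2% of genes. The lists are of similar length, with 8459 loops for ES cells, 8005 for lens epithelium and 7682 for lens fibers. Their make-up by anchor width differed. Anchors of 5 kb were listed for 3350 ES cell and 1226 fiber loops, and anchors of 25 kb for 2065 ES cell, 3332 epithelial and 3293 fiber loops. The paper also gives a lower share of contacts between chromosomes in ES cells than in either lens cell type. What this does to the counts at the members was not tested.

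**Figure D1:**
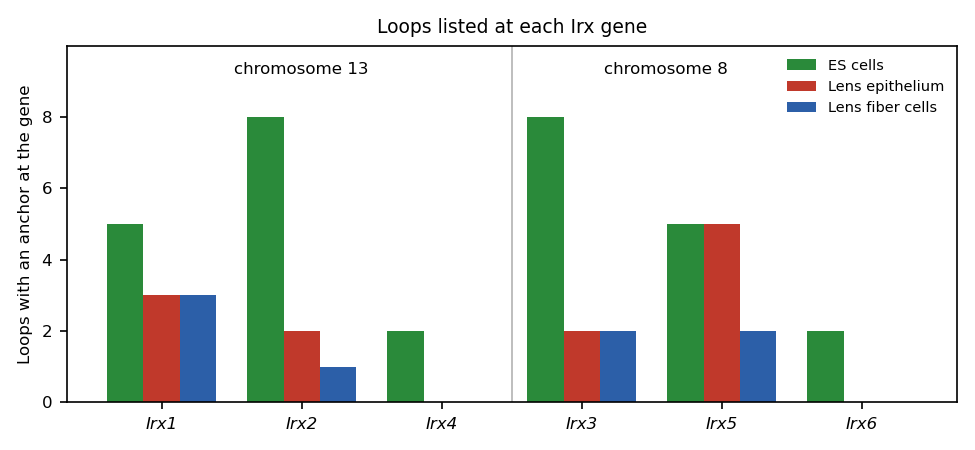
Number of loops (y axis) with an anchor at each Iroquois gene (x axis), by list: green for ES cells, red for lens epithelium and blue for lens fiber cells. Irx2 and Irx3 reach 8 loops in ES cells, and Irx4 and Irx6 have no bar in either lens list.

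The Iroquois genes were joined to each other in all 3 lists, and in ES cells every pair within a cluster was joined. The lists held a loop for 3 of 3 pairs on chromosome 13 and 3 of 3 pairs on chromosome 8 in ES cells. Each lens list held 1 of 3 pairs in each cluster, and these were Irx1 with Irx2 and Irx3 with Irx5, the pairs that are counterparts by ancestry. All 6 members thus belonged to a closed trio of genes in ES cells, as did 3.13% of all genes. In the lens lists no member did, against 2.07% of genes in epithelium and 1.75% in fibers.

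On chromosome 13 the 3 ES cell loops between Iroquois genes had anchors of 5 kb, and their contacts exceeded the donut-shaped surroundings by similar factors. Irx1 and Irx2 had 55 observed contacts against 4.53 expected, a ratio of 12.1 (95% exact Poisson interval 9.15 to 15.8). For Irx2 and Irx4 it was 12.5 (8.97 to 17.1), with 40 contacts, and for Irx1 and Irx4, which are 1300 kb apart, 11.5 (6.68 to 18.4), with 17 contacts. The intervals overlap and cover counting error of the observed contacts only. Among the 3350 ES cell loops with 5 kb anchors, these 3 ranked 58, 53 and 66 by ratio.

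On chromosome 8 the loop of Irx5 with Irx6 was less enriched than that of Irx3 with Irx5. Irx3 and Irx5 had 82 contacts and a ratio of 12.1 (9.59 to 15.0), rank 60 of the same 3350 loops. For Irx5 and Irx6 the ratio was 4.84 (3.03 to 7.33), with 22 contacts and rank 937. For Irx3 and Irx6 it was 6.41 (3.59 to 10.6), with 15 contacts and rank 353. The interval of Irx5 with Irx6 lies below that of Irx3 with Irx5 and below that of its counterpart by ancestry, Irx2 with Irx4, whereas the interval of Irx3 with Irx6 overlaps that of Irx3 with Irx5.

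In the lens lists 3 of the 4 loops between Iroquois genes were called at wider anchors than in ES cells, so that their ratios cannot be set against the ES cell ratios. In lens epithelium, at 10 kb, Irx1 and Irx2 had 34 contacts and a ratio of 3.97 (2.75 to 5.55), rank 691 of 3206 loops. Irx3 and Irx5 had 31 contacts there and a ratio of 3.37 (2.29 to 4.78), rank 1416 of 3206. The intervals of these loops overlap. In lens fibers Irx1 and Irx2 were joined at 25 kb, with 125 contacts and a ratio of 2.36 (1.97 to 2.81), rank 1796 of 3293 loops. Irx3 and Irx5 were joined there at 5 kb, with 18 contacts and a ratio of 4.93 (2.92 to 7.79), rank 397 of 1226. At the same width the ES cell ratio for Irx3 and Irx5 was 12.1, and the intervals do not overlap, but the anchors are 5 kb apart and the maps have no replicate error. This fiber loop was among the least certain calls. The largest of its false discovery rates was 0.0997, and its anchors lay beside Irx3 and Irx5 rather than in them, within the 5 kb margin.

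**Figure D2:**
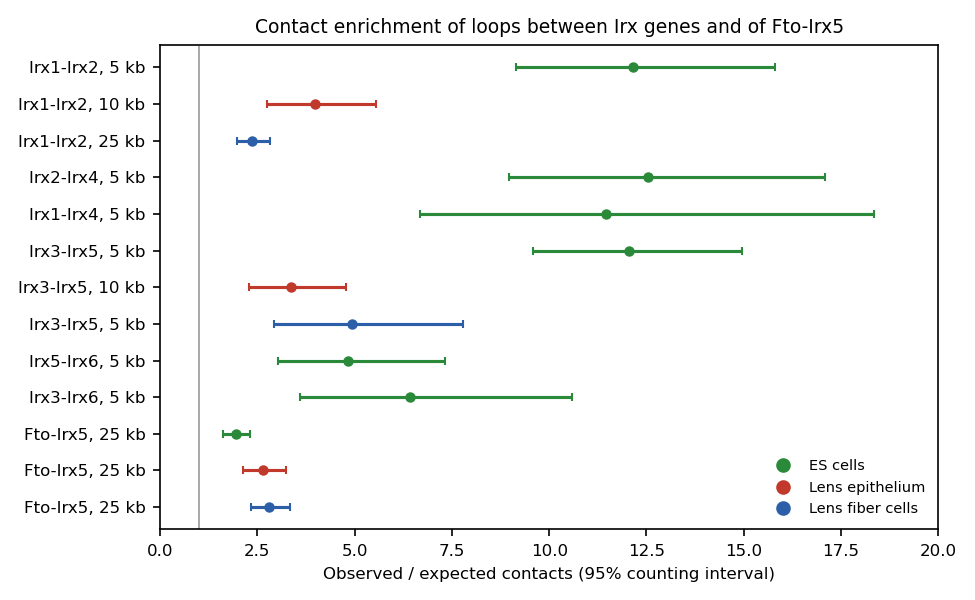
Observed over expected contacts (x axis) of each loop between Iroquois genes and of the loop from Fto to Irx5, with 95% Poisson intervals as bars; each row names the pair and the anchor width, and the gray line marks a ratio of 1. The 3 loops of the chromosome 13 cluster and the Irx3 to Irx5 loop in ES cells sit between 11.5 and 12.5, and rows of different anchor width are not comparable.

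The clusters differed in the reach of their ES cell loops. Each had 12 loops in ES cells, but on chromosome 13 their median size was 3425 kb and the longest spanned 31900 kb. On chromosome 8 the median was 362.5 kb and the longest loop 875 kb. Loops above 3 Mb numbered 6 on chromosome 13 and 0 on chromosome 8 in ES cells, and 0 in both clusters in each lens list. Irx1 had 2 of them and Irx2 had 4, whereas Irx4 had none. A loop above 3 Mb was found at 1.88% of protein-coding genes in ES cells, 0.342% in epithelium and 0.31% in fibers.

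The far ends of the long loops lay at Tfap2a, Barx1 and Pitx1 and at adjoining anchors holding Nr2f1 and A830082K12Rik. Irx2 was joined to Tfap2a, which encodes AP-2alpha of the surface ectoderm and neural crest, over 31900 kb. This loop rested on 16 contacts, with a ratio of 20.2 (11.6 to 32.8). Over 23975 kb Irx2 was joined to Barx1, a homeobox gene of stomach and tooth mesenchyme, with 22 contacts and a ratio of 20.9 (13.1 to 31.7). These loops ranked 29 and 26 of 2065 ES cell loops with 25 kb anchors.

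Pitx1, a homeobox gene of the hindlimb and pituitary, was joined to both Irx1 and Irx2 through 1 anchor, chr13:55825001-55850000. Its loop to Irx1 spanned 16125 kb, with 14 contacts and a ratio of 14.9 (8.12 to 24.9). Its loop to Irx2 spanned 16800 kb, with 19 contacts and a ratio of 10.1 (6.10 to 15.8). On the other side of the cluster Irx2 was joined to Nr2f1, the gene for the orphan nuclear receptor COUP-TFI, over 5550 kb, with 21 contacts and a ratio of 13.8 (8.51 to 21.0). Irx1 was joined to the adjoining anchor over 6250 kb, with 14 contacts and a ratio of 9.85 (5.38 to 16.5). The noncoding gene A830082K12Rik overlaps both the Nr2f1 anchor and this one.

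None of the 6 long loops had a counterpart in a lens list, also with a tolerance of 25 kb. All had anchors of 25 kb and few contacts, and the least count among all ES cell loops was 12. Leaving out the loops to Iroquois genes, which chose these anchors, 4 other ES cell loops above 3 Mb were found at the Tfap2a anchor, 6 at Barx1 and 3 at Pitx1, and 0 at Nr2f1 and A830082K12Rik. Each partner anchor had between 1 and 4 loops in each lens list, none above 3 Mb. Among the partners, Barx1 and Pitx1 were joined to each other in ES cells and the other pairs were not.

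**Figure D3:**
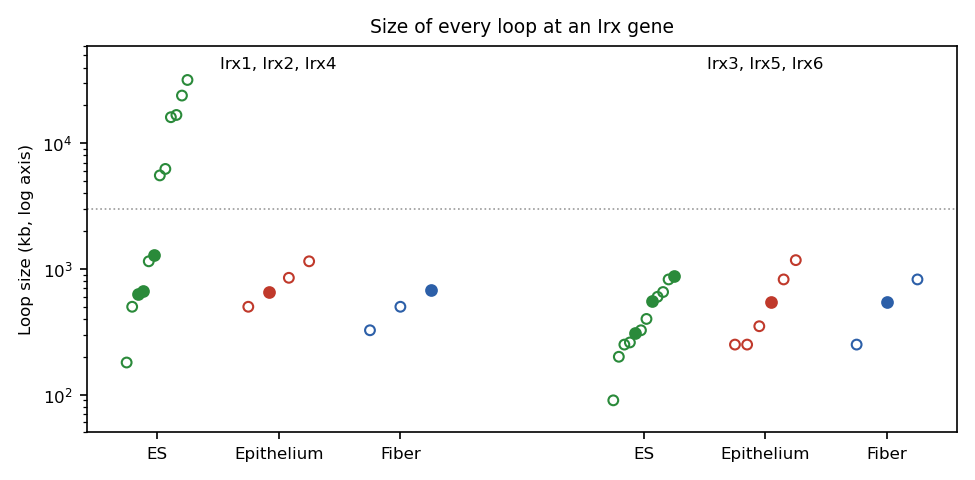
Size of every loop at an Iroquois gene (y axis in kb, logarithmic) by cluster and list (x axis); filled points join Iroquois genes and the dotted line marks 3 Mb. The 6 points above the line are ES cell loops of Irx1 and Irx2, and all loops of the chromosome 8 cluster lie at or below 1175 kb.

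Near the chromosome 13 cluster, 1 distal site recurred in all 3 lists. The anchor at chr13:71450001-71475000 lies 500 kb from Irx1 in a region without an annotated gene. Its 25 kb loop to Irx1 had 135 contacts in lens epithelium and 162 in lens fibers, with ratios of 2.51 (2.10 to 2.97) and 2.52 (2.15 to 2.94). The fiber ratio was 1.01 times that of epithelium (0.797 to 1.28). In ES cells this loop was called at 5 kb, with 29 contacts and a ratio of 6.37 (4.27 to 9.15). The same site was joined to Irx2 over 1150 kb, with 97 contacts and a ratio of 2.61 (2.11 to 3.18) in ES cells, and 80 contacts and 2.91 (2.31 to 3.63) in lens epithelium. No fiber loop joined it to Irx2.

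A few loops of Irx1 and Irx2 were seen in a single list. Lens epithelium alone had a loop of 850 kb from Irx1 to chr13:71100001-71125000, with 66 contacts and a ratio of 2.29 (1.77 to 2.91). Lens fibers alone had one of 325 kb from Irx1 toward Irx2, with 116 contacts and a ratio of 2.03 (1.68 to 2.44). In ES cells alone Irx2 was joined over 180 kb to a site on the side of Irx4, with 57 contacts and a ratio of 2.45 (1.86 to 3.17).

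**Figure D4:**
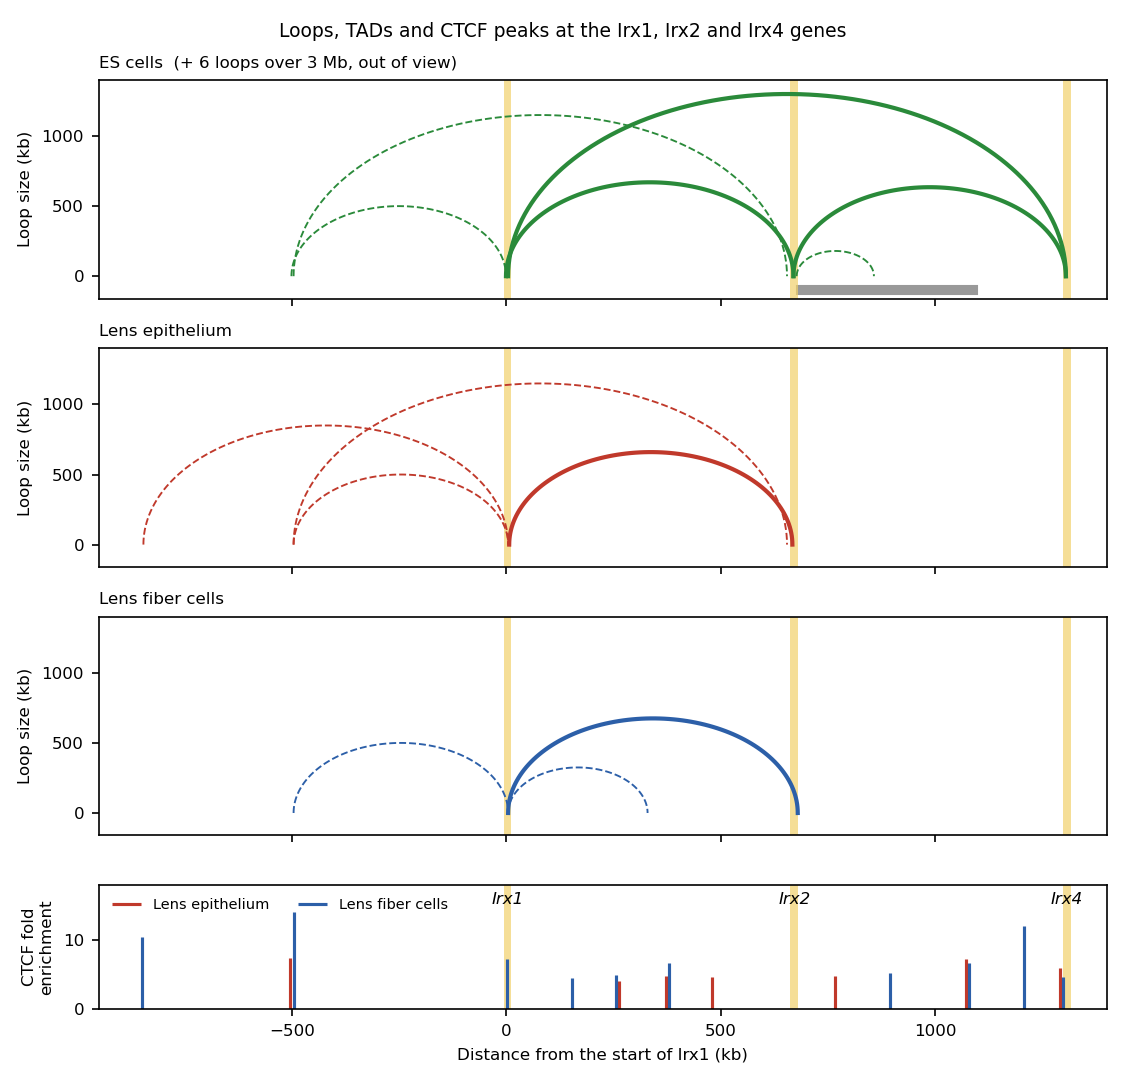
Loops (arcs, with the top at the loop size in kb on the y axis) of Irx1, Irx2 and Irx4 in each list along the distance from the start of Irx1 (x axis, kb); thick arcs join Iroquois genes, dashed arcs are the other loops, gray bars are TADs touching a member and yellow bands are the widened genes. The lowest panel shows the fold enrichment of CTCF peaks, with the stems of both lens lists drawn side by side. Outside the cluster only peaks inside anchors of loops of a member are drawn, and other peaks there are left out. The arcs to Irx4 appear in ES cells only, and the site 500 kb before Irx1 carries arcs in every list.

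On chromosome 8 the recurrent distal site lay in the gene body of Fto, which encodes an RNA demethylase. The anchor chr8:91525001-91550000 was joined to Irx5 over 825 kb in all 3 lists, with the same 25 kb anchors in each. Its contacts numbered 132 in the ES cell map, 95 in the epithelial map and 126 in the fiber map. The ratios were 1.94 (1.63 to 2.31), 2.64 (2.14 to 3.23) and 2.81 (2.34 to 3.34). Both lens ratios were above that of ES cells, 1.36 times (1.03 to 1.78) in epithelium and 1.44 times (1.12 to 1.86) in fibers. The lens ratios differed by less than the counting error, with fibers 1.06 times epithelium (0.808 to 1.40). These intervals hold no replicate error. The ES cell call was weak, with a largest false discovery rate of 0.0638.

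Fto was also joined to Irx3 in all 3 lists. The loop spanned 260 kb in ES cells, at 10 kb, with 68 contacts and a ratio of 2.82 (2.19 to 3.57). In the lens it spanned 250 kb, at 25 kb, with 119 contacts in epithelium and 145 in fibers and ratios of 2.12 (1.75 to 2.53) and 2.04 (1.72 to 2.40). The fiber ratio was 0.963 times that of epithelium (0.751 to 1.24). A second Fto site gave a loop to Irx3 of 400 kb in ES cells alone, with 177 contacts and a ratio of 2.06 (1.77 to 2.39).

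The site chr8:91175001-91200000, beyond Fto, had loops called to different members in ES cells and in lens epithelium. It was joined to Irx3 in ES cells, over 600 kb, with 154 contacts and a ratio of 2.37 (2.01 to 2.78). In lens epithelium it was joined to Irx5, over 1175 kb, with 52 contacts and a ratio of 2.73 (2.04 to 3.58). Neither loop had a counterpart in another list.

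On the side of Irx6, Irx5 had a loop of 250 kb in both ES cells and lens epithelium. In ES cells it was called at 10 kb, with 58 contacts and a ratio of 2.30 (1.75 to 2.97). In lens epithelium it was called at 25 kb, with 103 contacts and a ratio of 2.05 (1.67 to 2.48). These values cannot be set against each other, since the anchor widths differ. The far end of this loop lies between Irx5 and Irx6. A loop of 350 kb in lens epithelium alone passed over Irx6 to a site 29.0 kb beyond it, with 25 contacts and a ratio of 3.96 (2.56 to 5.85). This anchor was the nearest to Irx6 in lens epithelium, and in lens fibers the nearest lay 139 kb away. For Irx4 the nearest anchors were 30.4 kb away in lens epithelium and 155 kb in lens fibers. A missing loop is a missing call, since the lists give no contacts for pairs that were not called.

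**Figure D5:**
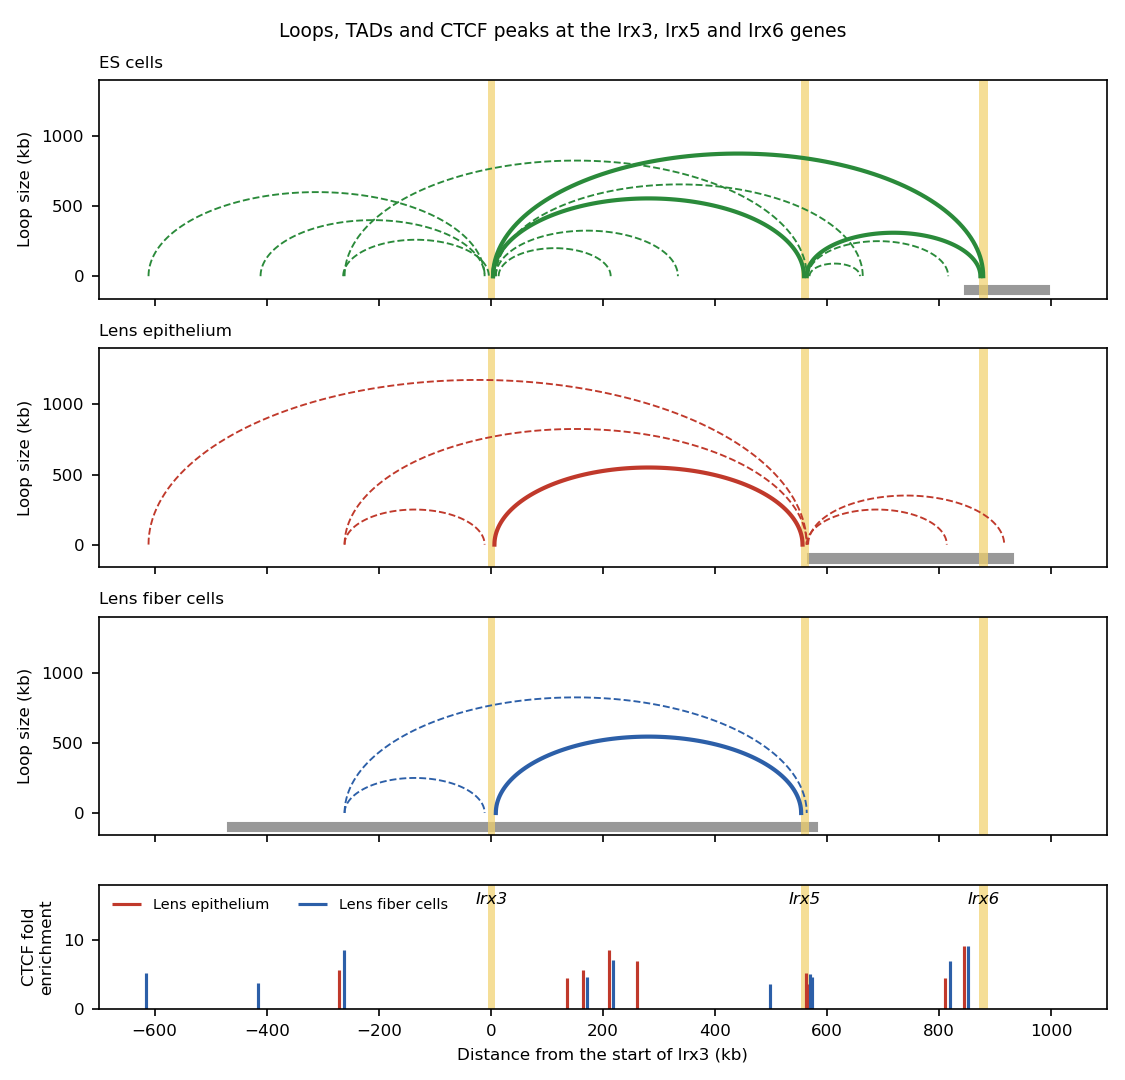
Loops of Irx3, Irx5 and Irx6 in each list along the distance from the start of Irx3 (x axis, kb), with loop size on the y axis and the lowest panel showing CTCF fold enrichment; arcs, bars, bands and stems are drawn as for the chromosome 13 cluster. Stems outside the cluster are again limited to peaks inside anchors of loops of a member, so that other peaks, as in Fto, are not shown. Arcs from Fto, 250 to 260 kb before Irx3, reach Irx3 and Irx5 in all 3 lists, and arcs reach Irx6 in ES cells only.

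Loops with a counterpart in another list were counted in each cluster. With both midpoints within 10 kb, 3 of 12 ES cell loops on chromosome 13 had a counterpart in a lens list, and 4 of 12 on chromosome 8. The lens counts were 3 of 4 and 4 of 6 in epithelium, and 2 of 3 and 3 of 3 in fibers. Over all loops 43% had a counterpart in ES cells, 64.2% in epithelium and 65.6% in fibers, and the small numbers at the clusters were not tested against these shares. Within 10 kb, a counterpart in both other lists was found for 3 fiber loops on chromosome 8 and 1 on chromosome 13. The fiber loop of Irx1 with Irx2 had an ES cell counterpart within 10 kb, and an epithelial one only within 25 kb.

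The neighbours of the clusters had loops, but few were joined to an Iroquois gene. Of 20 neighbouring genes, 13 had a loop in ES cells and 9 in each lens list. In each list 2 of them were joined to a member, Fto and Crnde. All loops of Fto ran to an Iroquois gene, 3 in ES cells, 2 in epithelium and 2 in fibers. Crnde is a long noncoding RNA gene beside Irx5 and shares its anchors, with 4, 5 and 2 loops. Rpgrip1l, Aktip and Rbl2, beyond Fto, had no loop in any list. No neighbour had a loop above 3 Mb, and 4 had loops in ES cells only.

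Loops were also counted at the other homeobox genes of the TALE class. Of 11 such genes 5 had a loop in ES cells, 8 in epithelium and 6 in fibers, and none had loops in ES cells only. Meis2, which is involved in lens and retina development, had 9 loops in ES cells, 5 in epithelium and 3 in fibers. It was the single gene of the 11 with loops above 3 Mb, 4 of them, the longest of 41375 kb in ES cells. Pbx2, Pbx4 and Tgif2 had no loop in any list.

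The TADs that touched the Iroquois genes were placed differently in each list. On chromosome 13 a single ES cell TAD, chr13:72635001-73055000, began just past the end of Irx2 and held none of the members, and neither lens list had a TAD there. On chromosome 8 each list had 1 TAD. In ES cells it spanned 150 kb, chr8:92645001-92795000, and held Irx6. In lens epithelium it spanned 365 kb, chr8:92365001-92730000, held Irx6 and touched the margin of Irx5. In lens fibers it spanned 1050 kb, chr8:91330001-92380000, and held Irx3, Irx5 and much of Fto. A TAD touched 2 of 6 members in each list, against 43.4% of protein-coding genes in ES cells, 22.8% in epithelium and 31.6% in fibers.

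The distance from TAD borders to CTCF summits varied on chromosome 8. The border of the epithelial TAD next to Irx5 lay 0.375 kb from the nearest epithelial CTCF summit. The border of the ES cell TAD before Irx6 lay 1.83 kb from an epithelial and 1.81 kb from a fiber summit, the nearest sites in lists of other cells. The right border of the ES cell TAD lay 23.4 kb from an epithelial and 6.34 kb from a fiber summit, and that of the epithelial TAD 83.2 and 71.3 kb. The right border of the fiber TAD, past Irx5, lay 12.7 kb from the nearest fiber summit, and its left border 16.6 kb. All 3 fiber loops of the chromosome 8 cluster lay inside that TAD. In the other lists no loop of a member lay inside 1 TAD.

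CTCF peaks at the Iroquois genes themselves were found for Irx5 in both lens lists and for Irx1 in fibers. In lens epithelium 1 of 6 members had a peak within 5 kb, and in lens fibers 2 of 6, against 31.2% and 45.9% of all protein-coding genes. Irx5 had 1 peak in each list at the same place, chr8:92364453-92364709 in epithelium and 3.06 kb from the gene in fibers, with fold enrichments over background of 5.18 in epithelium and 5.07 in fibers. A weaker peak lay just beyond the margin in both lists, with 3.59 and 4.72. Irx1 had a peak in fibers alone, chr13:71956422-71956662, with a fold enrichment of 7.28 and a −log10 q of 10.9. In epithelium the nearest peak to Irx1 lay 243 kb away.

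At Irx2, Irx3, Irx4 and Irx6 the nearest lens CTCF peaks lay outside the 5 kb margin. Distances over all genes were not computed. The nearest to Irx2 lay 93.0 kb away in epithelium and 214 kb in fibers, and the nearest to Irx3 137 kb and 165 kb. Irx4 had one 7.18 kb away in epithelium and 7.27 kb in fibers, just outside the margin, and Irx6 27.3 kb in both. CTCF in ES cells was not analysed here.

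CTCF peaks were then counted across the whole of each cluster. From the first to the last widened gene, chromosome 13 had 6 peaks in epithelium and 8 in fibers, of which 3 overlapped in each list. Chromosome 8 had 8 and 7, of which 6 overlapped. Over all peaks 72.8% overlapped the other list in epithelium and 50.1% in fibers, and the counts of the clusters are small and were not tested. The density was 4.54 and 6.05 peaks per Mb on chromosome 13 and 8.96 and 7.84 on chromosome 8. Median fold enrichments were 4.83 and 5.91 on chromosome 13 and 5.46 and 5.07 on chromosome 8, below the medians of the whole lists, 5.78 in epithelium and 6.44 in fibers. The strongest peak, with 12.0, was found in fibers alone 99.2 kb before Irx4 and ranked 937 of 23868.

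Both recurrent distal anchors held a CTCF peak in each lens list. At chr13:71450001-71475000 the fold enrichment was 7.39 in epithelium and 14.1 in fibers, and at the Fto anchor 5.66 and 8.56. The epithelial loop from Irx1 over 850 kb ended at a peak of 10.5 in fibers that the epithelial list lacks. Both anchors held a peak of the same cell type in 0 of 4 epithelial and 1 of 3 fiber loops on chromosome 13, and in 2 of 6 and 1 of 3 on chromosome 8. Over all loops, with anchors of any width, the share was 15.7% in epithelium and 39.1% in fibers. Neither anchor held one in 2 of 4 epithelial and 0 of 3 fiber loops on chromosome 13. On chromosome 8 neither did in 1 of 6 and 1 of 3, and over all loops in 39.5% and 16.6%. The paper gives lower shares of loops with CTCF at both anchors and higher shares with none. The difference was not examined. The loops between Irx3 and Irx5 had no lens peak at either anchor in any list. Nor had the ES cell loops of Irx4 to Irx1 and Irx2 or of Irx3 to Irx6. The anchors of these loops were 5 or 10 kb wide, so that peaks close by were not counted. The 25 kb Irx5 anchor of the Fto loop, chr8:92350001-92375000, held 2 peaks in each lens list. The ES cell loop of Irx5 to Irx6 had a peak of both lens lists at Irx5 and none at Irx6.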

How the data were processed

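Per the labels, reads of mouse samples were processed with BWA, Juicer and MACS2 on mm10. The authors merged both Hi-C replicates of a cell type and called loops with HiCCUPS and TADs with Arrowhead (juicer_tools 2.13.06). In the deposited loop lists the observed value is a raw count of contacts in a pixel of 5, 10 or 25 kb, the expected values are a signal modelled by HiCCUPS from the surroundings, and each false discovery rate is a q-value. In the deposited CTCF lists MACS2 gave each peak a fold enrichment ratio over background, a score, and a −log10 p-value and q-value. Read depth was not analysed here, and the number of contacts per loop bounds the precision.

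Computing used pandas 2.3.3, numpy 2.4.6 and scipy 1.17.1 under Python 3.11.15, and plots used matplotlib 3.10.9. Overlaps needed at least 1 bp. Loop size is the distance between anchor midpoints, and the main ratio is observed over the donut expectation. Exact 95% Poisson intervals of the observed contacts, with the expectation held fixed, cover counting error only, as do the binomial intervals of the 6 quotients between lists with identical anchors. The overlap rules were tested on simulated data. The gene table carries no strand. Named genes were the members, protein-coding genes in partner anchors, 20 neighbours and 11 other TALE genes. A830082K12Rik was named after its loop was seen. Members and lists were chosen with earlier results of these data known.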

Additional observations from a re-analysis of the deposited data

How the results depend on the processing

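Of 100 recomputed counts, 79 stayed within 1.5 times the reported one and 21 did not. Most lens loops had 25 kb anchors. With anchors of 5 or 10 kb only, chromosome 13 kept 5 ES cell, 1 epithelial and 0 fiber loops, and chromosome 8 had 2 in epithelium and 1 in fibers. By the midpoint of the anchor, the chromosome 8 cluster had 6 loops in ES cells and 1 in fibers. Its 12 ES cell loops fell to 9 without widening, and to 9 with a largest false discovery rate below 0.01. The chromosome 13 TAD of ES cells was lost (0) when Irx2 was not widened or had to lie inside it, and the chromosome 8 one (0) with TADs of at least 200 kb. Without widening, 0 CTCF peaks were left on chromosome 13 in fibers and on chromosome 8 in either list. With 25 kb of widening there were 1 in epithelium and 2 in fibers on chromosome 13, and 2 and 2 on chromosome 8. The stronger 50% of each list left 0 on chromosome 8 in both. With peaks of the other lens cell type, both anchors were marked in 2 epithelial and 0 fiber loops on chromosome 13. Where a count fell with fewer loops or peaks or narrower genes, the alternative itself set this, and other causes were not tested. No paired analysis was possible because both replicates of each cell type were merged before the lists were made. The absence of replicate lists limits every comparison between cell types, and calls with 14 to 22 contacts carry the widest intervals.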
